A study of Triticum aestivum with 122 samples.

Results

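In heads of bread wheat, 79 of 30127 gene entries kept the same direction of difference between plants grown from epibrassinolide-treated and from control seed in at least 14 of 16 conditions, and these 79 are described here. A condition is 1 tissue (floret or rachis), 1 set of pots (kept at 22 °C or assigned to 29 °C) and 1 sampling time. Values were taken as log2(normalized count + 1) and averaged per group, and the mean of the control group was subtracted from that of the epibrassinolide group in each condition. Entries needed a mean of at least 20 normalized counts over all libraries, and 15 entries at the low-numbered end of chromosome 1A were left out. The rule allowed up to 150 entries, ranked by the size of the median of the 16 differences, and the limit was not reached. The 79 entries are 0.262% of those that could qualify, out of 55577 in the table. Of them 29 were higher after epibrassinolide (the higher members) and 50 were lower (the lower members). The genes were thus chosen by their measured differences between seed treatments, which are given as a description and with no test.

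Seeds of Triticum aestivum cultivar Vida germinated for 48 h with either 1 µM 2,4-epibrassinolide (EBR) or 1 µM dimethyl sulfoxide (DMSO), which served as the control, so every plant came from treated seed. The growth chambers were kept at 22 °C under a 16 h day, and some pots from either seed treatment went to continuous 29 °C when heads had reached the tetrad stage (booting). Sampling of unemerged heads took place just before this transfer (0 h) and after 8, 16 and 24 h, each head being dissected into floret and rachis, the axis that bears the spikelets, for sequencing of poly(A)-selected RNA. The labels describe 64 plants with 4 biological replicates per combination, each group being 1 seed treatment, temperature, time and tissue. Pots of the 29 °C set sampled at 0 h had not yet been heated. Of the 32 groups 26 had 4 libraries, 5 had 3, and the rachis of EBR heads at 22 °C and 8 h had 2. Floret and rachis of a plant come from the same head, so the 16 differences rest on 8 sets of heads and are not independent. The libraries are of bulk tissue, in which fewer cells of a type and less RNA per cell cannot be told apart.

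Brassinosteroids are plant steroid hormones. In Arabidopsis they bind the receptor kinase BRI1 at the cell surface, which acts with the co-receptor BAK1, and the signal inactivates the kinase BIN2 so that the transcription factors BZR1 and BES1 can act in the nucleus. They are known for promoting cell elongation, and in rice and Arabidopsis for effects on inflorescence form and on anther and pollen development. Epibrassinolide is an active brassinosteroid used on seed and foliage.

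The gene IDs were not matched to names: 0 of them appeared among the 155467 entries of the gene table used here. Lists of brassinosteroid pathway genes and of anther, photosynthetic, meristem, vascular and stress markers therefore could not be applied, the tissue labels were not checked against markers, and genes are given by ID, in which the chromosome can be read. Whole reads over the listed entries came to 14.5 to 21.8 M per floret library (median 17.4 M) and 10.6 to 18.2 M per rachis library (median 14.7 M). The table as read covers chromosomes 1 to 5, so these are not full library depths. All 172 replicate pairs differed by more than sampling noise, with a chi-square of at least 2.82 per entry.

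Few entries agreed in direction over 14 or more conditions. How many would do so by chance was not computed, so nothing is read from their number. Of the 30127 entries 5914 were split evenly between directions, 11087 had the same sign in 9 conditions and 8154 in 10, and the numbers fell to 3357 at 11, 1211 at 12 and 324 at 13. Among the members 69 reached 14 conditions, 9 reached 15 (1 higher and 8 lower) and 1 reached 16. Just outside the threshold, the 324 entries at 13 conditions had a median absolute shift of 0.11 on the log2 scale and a largest of 1.24. Just inside it, the 69 entries at 14 had a median of 0.13 and a largest of 0.63. The lowest mean level of a member was 21.1 normalized counts, and 7 further entries with a mean between 10 and 20 would have met the sign rule.

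**Figure D1:**
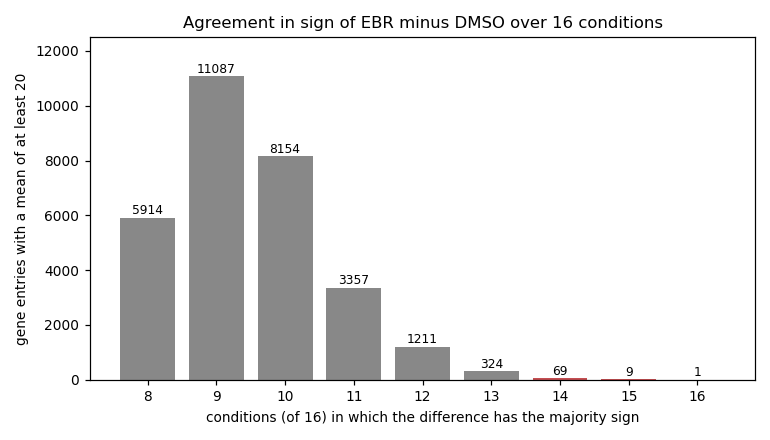
Number of gene entries (y axis) by the number of the 16 conditions in which EBR minus DMSO had the entry's more frequent sign (x axis), with members in red. The bars fall from 11087 entries at 9 conditions to 69, 9 and 1 at 14, 15 and 16.

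The single entry with the same sign in 16 of 16 conditions was TraesCS5B03G1240200.1, on chromosome 5B, named here after its values were seen. Its floret values were 382 at the lowest, 432 at the median and 505 at the highest in 31 DMSO libraries, and 219, 414 and 474 normalized counts in 30 EBR libraries. In the rachis they were 383, 426 and 567 in 32 DMSO libraries and 245, 407 and 454 in 28 EBR libraries. The ranges of the seed treatments overlapped widely in both tissues. Its differences ran from -0.21 to -0.0016 with a median of -0.08, against a within-group SD of 0.16 for floret and 0.15 for rachis libraries.

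Shifts of the members were small and below the spread between like heads. The higher members had a median shift of 0.16, or 11.7%, and single members ranged from 0.03 to 0.50. The lower members had a median of -0.11, or -7.58%, and the lowest was -0.63. Over all 79 the median absolute shift was 0.13, against 0.06 for the 30127 entries. It exceeded 0.1 in 54 members, 0.2 in 16, 0.3 in 7 and 0.5 in 2. The within-group SD of the members had a median of 0.23 for floret and 0.30 for rachis libraries. The shift was larger than the SD of both tissues in 1 member and larger than that of at least 1 tissue in 3.

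Which genes met the rule depended on the libraries used. Leaving out 1 replicate number, between 49 and 248 entries met it, of which up to 150 were kept. Of those kept 9 (without replicate 1), 19 (replicate 2), 19 (replicate 3) and 16 (replicate 4) were among the 79. After rescaling with TMM factors (trimmed mean of M-values) the set held 46 higher and 36 lower entries and shared 55 with the 79. TMM factors moved the median difference of all 30127 entries by 0.14 in the rachis at 29 °C and 24 h and by less than 0.1 in the other 15 conditions.

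Differences were largest at 29 °C and 24 h. For 59 of 79 members the largest of the 16 differences lay there, in 47 of them in the rachis and in 12 in the floret. In the rachis of these heads 29 of 29 higher members lay above and 50 of 50 lower members lay below the DMSO mean, with median differences of 0.79 and -0.57. In the floret of the same heads the medians were 0.27 and -0.34, and 3 members went against their direction. Over the other 14 conditions the median of the higher members lay between 0.01 and 0.32 and that of the lower members between -0.16 and -0.02. A difference above 1 in the member's direction occurred in 25 members, in 24 of them at 29 °C and 24 h and in 6 outside it. Entries in general also differed most in these heads, with a median absolute difference of 0.58 (floret) and 0.62 (rachis). For the members it was 0.34 and 0.61. The rule used these differences, and the shares of all entries with such differences were not computed. Nothing is therefore read from these counts.

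Conditions differed in how many members opposed their own direction. The 147 opposing differences comprised 66 in the floret and 81 in the rachis. Of these 25 (14 higher and 11 lower members) were in the rachis of the 29 °C pots at 0 h, before heating, and 20 (3 higher and 17 lower) in the floret at 29 °C and 16 h, which were the 2 highest counts. The rachis at 29 °C had 17 at 8 h and 18 at 16 h. The lowest counts were 0 in the rachis at 29 °C and 24 h, 2 in the rachis at 22 °C and 24 h, and 3 in the floret both at 29 °C and 24 h and in the 29 °C pots at 0 h. In the floret 26 members kept their direction in 8 of 8 conditions and in the rachis 17 did, and 11 members were opposed in both tissues of the same condition.

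**Figure D2:**
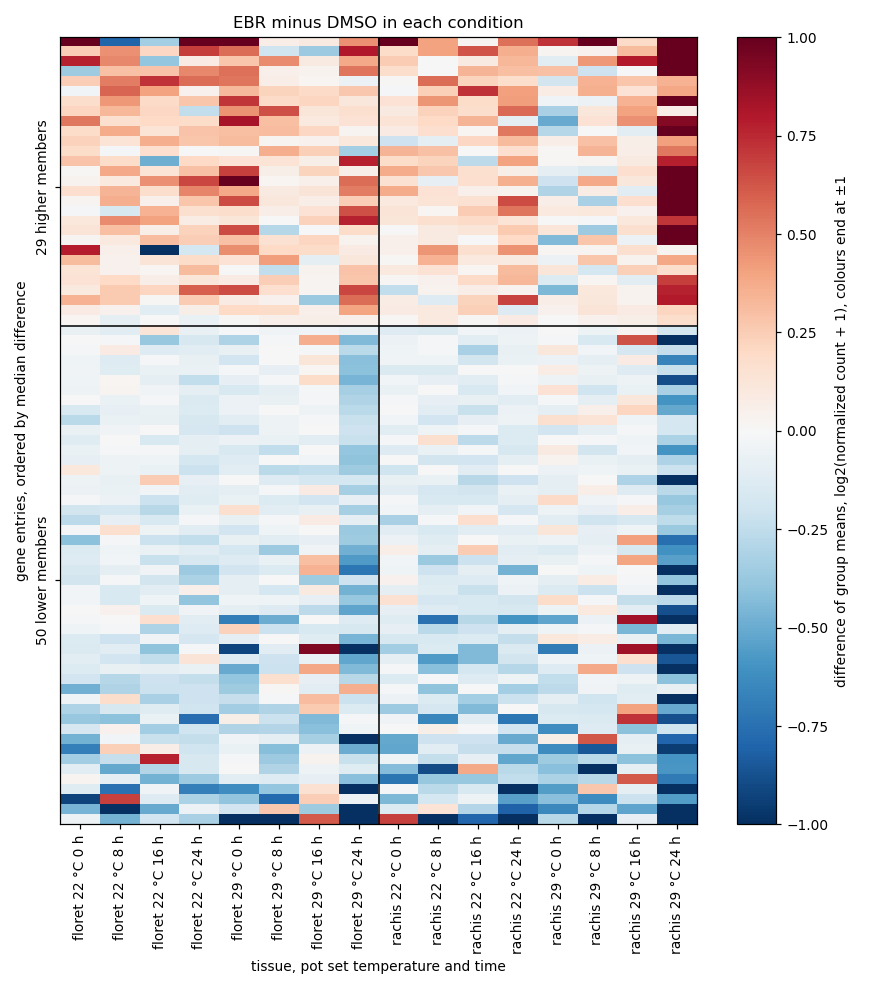
EBR minus DMSO in log2(normalized count + 1) for the 29 higher and 50 lower members (rows, ordered by median difference) in the 16 conditions (columns), with colours ending at 1 in either direction. The darkest column is the rachis at 29 °C and 24 h, where 0 members oppose their direction, and 25 members do so in the rachis of the 29 °C pots at 0 h.

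Without the libraries of 29 °C and 24 h, 211 entries had the same sign in at least 12 of the remaining 14 conditions. The 150 with the largest median comprised 97 higher and 53 lower entries. Of the 79 members 48 were among them, which is 60.8% of the 79 and 32.0% of the 150.

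Heads of the same group varied along a common axis that also separated the seed treatments in some conditions. This head axis is the first component of the deviations of libraries from their group means, computed without the members and given in units of its SD within groups, and it held 33.7% of the within-group variation in the floret and 37.0% in the rachis. In each tissue EBR heads scored below DMSO heads in 5 of 8 conditions and above them in 3. Floret differences lay between -4.79 and 2.13 and rachis differences between -4.01 and 1.93, the lowest of either tissue being at 29 °C and 24 h. There DMSO heads had mean scores of 3.60 (floret) and 3.26 (rachis), whereas EBR heads had -1.19 and -0.75.

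Correlations of the members with this axis were lower than those of other entries. The rule disfavours entries that follow the axis, which changes direction between conditions, so nothing is read from this. Over the deviations of 61 floret libraries the absolute Pearson r of a member with the axis had a median of 0.212, against 0.415 for the 30127 entries. Over 60 rachis libraries the medians were 0.302 and 0.477. Libraries and depth are shared by both sides of these correlations. With the head axis score of the same plant's other tissue as a covariate 154 entries met the rule and the 150 kept held 76 higher and 74 lower ones. Of the 79 members 27 were among them, while 61 were among the 86 that met the rule in the same plants without the covariate.

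**Figure D3:**
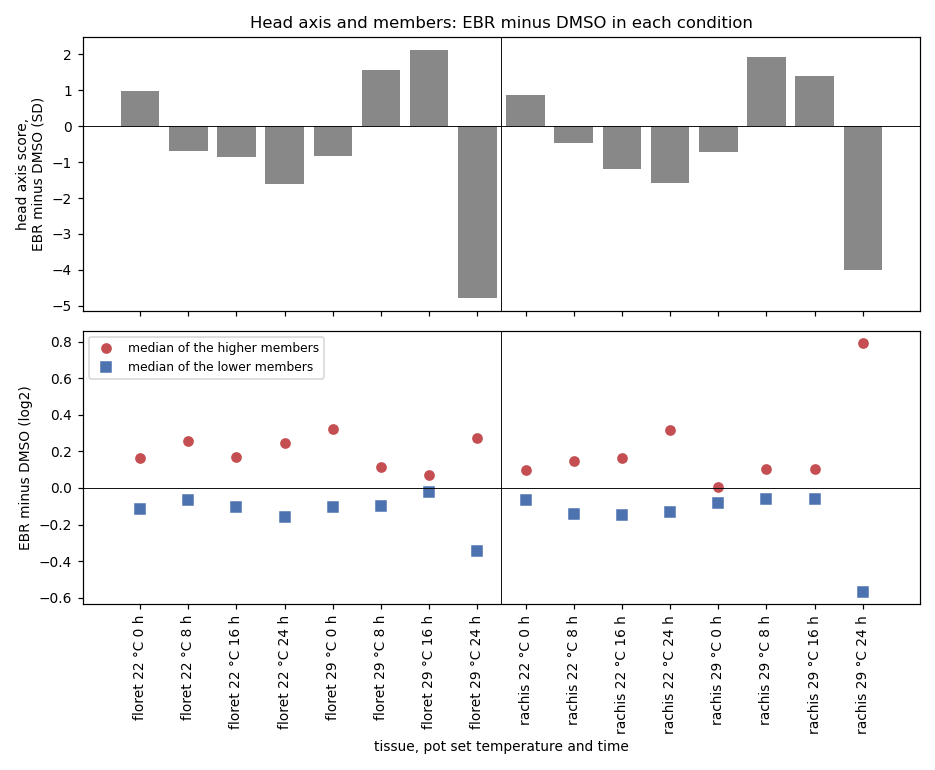
EBR minus DMSO for the head axis score in SD units (upper panel, bars) and for the median of the 29 higher members (circles) and 50 lower members (squares) in log2 units (lower panel), in the 16 conditions. The head axis changes direction between conditions, from 2.13 in the floret at 29 °C and 16 h to -4.79 at 24 h, while the higher members' median lies above 0 and the lower members' median below 0, as the rule requires of most conditions.

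TraesCS3A03G0245800.1, on chromosome 3A, had the largest shift among the higher members, with a median of 0.50. Its floret values were 0 at the lowest, 10.5 at the median and 89.4 at the highest in 31 DMSO libraries, and 0, 13.8 and 331 in 30 EBR libraries. In the rachis they were 0, 13.8 and 190 in 32 DMSO libraries and 2.38, 34.7 and 466 in 28 EBR libraries. Like heads differed widely: at 0 h in pots kept at 22 °C the 4 EBR florets had 3.20, 10.8, 145 and 331 normalized counts and the 4 DMSO florets 0, 5.85, 16.4 and 89.4. The groups overlapped there, and every EBR library lay above every DMSO library in 1 of 16 conditions. The within-group SD was 1.67 for floret and 1.78 for rachis libraries on the log2 scale.

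TraesCS2B03G0961800.1, on chromosome 2B, followed with a median of 0.34. It had 16.9, 53.4 and 94.4 normalized counts at the lowest, median and highest floret library of DMSO heads and 38.9, 61.0 and 103 in EBR heads. In the rachis the values were 12.3, 40.4 and 80.8 against 29.8, 49.7 and 74.8. In the rachis at 29 °C and 24 h the DMSO libraries had 32.7, 25.1, 19.2 and 12.3 and the EBR libraries 49.7, 39.2, 46.8 and 40.1, without overlap. EBR libraries also lay above every DMSO library in 1 further condition, the floret of the 29 °C pots at 0 h. There DMSO heads had 35.5, 51.2 and 52.5 and EBR heads 68.7, 66.5, 61.5 and 75.5.

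TraesCS2A03G0388300.1, on chromosome 2A, had the largest shift among the lower members, with a median of -0.63, and was scarce outside 1 group of heads. In DMSO heads at 29 °C and 24 h the rachis libraries had 178, 479, 716 and 728 normalized counts and the floret libraries 23.1, 52.4, 94.8 and 90.7. EBR heads of the same condition had 10.6, 7.46, 25.4 and 8.22 in the rachis and 10.5, 6.98, 5.69 and 8.80 in the floret. The highest value of any other group was 55.5 in the rachis and 17.7 in the floret. Its mean over all libraries was 26.8, but its median was 5.86 in floret and 8.42 in rachis libraries. It thus passed the mean of at least 20 only through DMSO heads at 29 °C and 24 h. The differences at 29 °C and 24 h were -5.21 in the rachis and -2.72 in the floret, and those of the other 14 conditions lay between -1.28 and 0.69. At 29 °C and 16 h the order in the floret was the reverse, the EBR libraries having 6.19 to 8.03 and lying above every DMSO library.

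TraesCS5A03G0175900.2, on chromosome 5A, had the next largest shift among the lower members, with a median of -0.41. Its floret values were 9.65, 23.7 and 67.3 at the lowest, median and highest DMSO library and 2.81, 16.0 and 39.9 in EBR heads. In the rachis they were 12.4, 35.1 and 102 against 9.36, 25.6 and 47.6. At 29 °C and 24 h the DMSO florets had 35.9, 53.5, 67.3 and 51.7 and the EBR florets 22.8, 10.1, 16.1 and 18.5. There and in 3 further conditions every EBR library lay below every DMSO library.

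**Figure D4:**
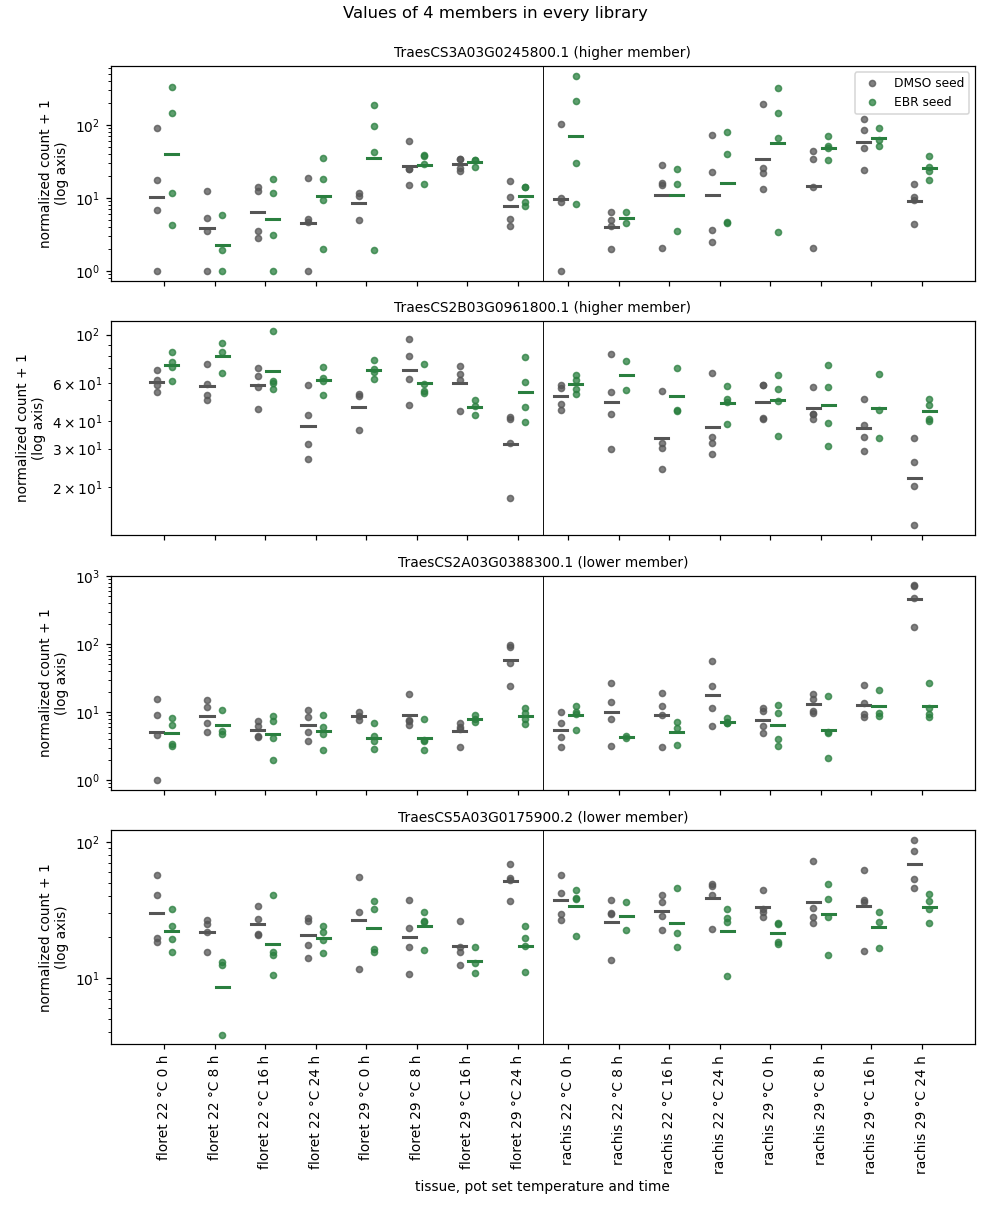
Normalized count + 1 (log axis) of 4 members in every library, by tissue, pot set and time, with DMSO heads in grey, EBR heads in green and bars at group means of the log2 values. TraesCS2A03G0388300.1 reaches 728 in a DMSO rachis at 29 °C and 24 h, and TraesCS3A03G0245800.1 spreads from 3.20 to 331 among 4 like EBR florets at 0 h.

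Groups of EBR and DMSO heads lay apart without overlap, in the direction of the entry's median, in at least 4 of the 16 conditions for 3 higher and 6 lower members. Among all 30127 entries 2.08% did so with a higher median and 2.25% with a lower one. The rule used this contrast, so nothing is read from these counts. At 0 h each entry's absolute difference between EBR and DMSO heads was taken as its median over both pot sets and tissues. It had a median of 0.11 over the members. Pots of the 29 °C and the 22 °C set, which differed in no treatment yet, were compared alike, over both seed treatments and tissues. Their absolute difference had a median of 0.11 over the members as well. For the 30127 entries the medians were 0.16 and 0.15.

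Members varied together from head to head only in part. As deviations from group means, pairs of higher members had a median Pearson r of 0.12 over 61 floret libraries and 0.17 over 60 rachis libraries, and pairs of lower members 0.05 and 0.14. Pairs of a higher and a lower member had -0.06 and -0.15. The closest pair in the floret was TraesCS1D03G0810100.1 and TraesCS1B03G0967200.1, both higher members, with r = 0.815, and it had r = 0.825 in the rachis. The closest pair in the rachis was TraesCS4B03G0212100.1 and TraesCS4B03G0545000.1, both lower members, with r = 0.849. These correlations share libraries and depth and are a description.

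The members lay on all 15 chromosomes of the table, 25 on subgenome A, 29 on B and 25 on D. Chromosome 2B held the most, with 9 members, or 11.4% of the members against 7.39% of the entries that could qualify. Chromosomes 3D, 4A, 4B and 5D held 18 lower members and no higher one: 5, 4, 6 and 3. These were 6.33%, 5.06%, 7.59% and 3.80% of the members, against 6.95%, 6.36%, 5.62% and 5.99% of the entries that could qualify. The chromosomes were picked after the counts were seen, and placement was not tested. By ID number the closest neighbours were TraesCS1A03G0949800.1, a lower member, and TraesCS1A03G0950600.1, a higher one, with 1 qualifying gene between them. For 4 members the table holds another entry of the same gene, each with a mean below 20.

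Heat was tested as 29 °C minus 22 °C, averaged over 8, 16 and 24 h and over both seed treatments. This is another contrast than that of the rule, but it rests on the same libraries. The DMSO heads at 29 °C and 24 h, where 59 of 79 members had their largest seed difference, enter both, so the heat calls are not independent of the choice of members. In the floret 15 members rose and 16 fell, or 31 of 79, where 42.2% of all entries tested were called, 21.7% as higher and 20.4% as lower. In the rachis 13 rose and 9 fell, or 22 of 79, where 34.8% were called, 18.5% as higher and 16.3% as lower. The test was limma on all groups of the tissue, two-sided, with Benjamini-Hochberg adjustment over all entries and calls at an adjusted p under 0.05. Of the higher members 4 rose and 7 fell in the floret and 3 rose and 5 fell in the rachis. Of the lower members 11 rose and 9 fell in the floret and 10 rose and 4 fell in the rachis. The median heat difference was -0.07 for the higher members in either tissue. For the lower members it was 0.03 (floret) and 0.06 (rachis), and for all entries tested 0.03 and 0.04. Calls in both tissues numbered 19, or 24.1% of the members against 28.0% of the 37058 entries tested in both. Of these 10 rose and 9 fell in both tissues, and among all entries 10386 of the 10388 called in both also had the same direction. Without the libraries of 29 °C and 24 h the rachis count was 11, all among the 22, where 23.2% of all entries were called, and the split between directions changed. Of the higher members 3 then rose and 0 fell in the rachis, and of the lower members 4 rose and 4 fell. In the floret 5 higher members then rose and 6 fell, and 5 lower members rose and 9 fell, where 31.8% of all entries were called. With replicate 1, 2, 3 or 4 left out the rachis count was 29, 14, 13 or 18. Of all entries 36.4%, 22.3%, 20.3% or 25.8% were then called.

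TraesCS2D03G0301500.1, a lower member on chromosome 2D, rose with heat. Its floret values were 123, 189 and 251 normalized counts at the lowest, median and highest of 23 unheated libraries and 212, 251 and 372 of 23 heated ones. In the rachis they were 144, 228 and 293 in 21 unheated and 220, 308 and 368 in 23 heated libraries. Heated means were higher in 6 of 6 combinations of seed treatment and time in each tissue, without overlap in 3 of 6 in the floret and 6 of 6 in the rachis. The log2 difference was 0.45 in the floret (SE 0.0621, limma adjusted p = 8.7e-08) and 0.51 in the rachis (SE 0.0610, limma adjusted p = 7.0e-09).

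TraesCS5D03G0411000.1, a lower member on chromosome 5D, was called higher with heat over all times, but the times differed in direction. At 8 h the DMSO florets had 147, 128, 111 and 122 normalized counts at 29 °C and 45.1, 32.4, 26.8 and 21.0 at 22 °C. The EBR florets of that time had 105 ± 27.7 (SD, n = 4) at 29 °C and 20.9 ± 1.58 (SD, n = 3) at 22 °C. At 16 h the order was the reverse, with 85.2 ± 6.40 (SD, n = 4) and 114 ± 17.8 (SD, n = 4) in DMSO florets. Heated means were higher in 2 of 6 combinations in the floret and in 4 of 6 in the rachis. The log2 difference over all times was 0.60 in the floret (SE 0.0899, limma adjusted p = 5.6e-07) and 0.33 in the rachis (SE 0.127, limma adjusted p = 0.040). The rachis call ended under 8 of 14 alternatives, with adjusted p from 0.0109 to 0.210 over them.

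The higher members TraesCS4D03G0742700.1 and TraesCS1B03G0967200.1, on chromosomes 4D and 1B, were named for a fall with heat. The former had 119, 199 and 249 normalized counts at the lowest, median and highest unheated floret and 104, 153 and 253 in heated ones. The latter had 192, 429 and 571 in unheated florets and 200.4, 333 and 481 in heated ones. Ranges overlapped in both genes. TraesCS4D03G0742700.1 changed by -0.31 in the floret (SE 0.0697, limma adjusted p = 0.000323), and in the rachis by -0.39 (SE 0.116, limma adjusted p = 0.00748), with lower heated means in 5 of 6 and 6 of 6 combinations. TraesCS1B03G0967200.1 changed by -0.33 (SE 0.0724, limma adjusted p = 0.000271) and -0.37 (SE 0.0930, limma adjusted p = 0.00182), lower in 6 of 6 and 5 of 6. In the rachis DMSO heads at 29 °C and 24 h were lowest, with 40.6 ± 19.1 (SD, n = 4) for the former and 155 ± 49.3 (SD, n = 4) for the latter. Without the libraries of 29 °C and 24 h neither rachis call remained, and adjusted p ranged from 0.000133 to 0.220 for the former and from 0.00143 to 0.125 for the latter over 14 alternatives.

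The 2 most shifted members were also called for heat, although their means were below the 50 that the naming rule asks for in this comparison. TraesCS3A03G0245800.1 rose by 2.01 in the floret (SE 0.477, limma adjusted p = 0.000634), from a median of 4.09 in 23 unheated to 23.6 in 23 heated libraries. In the rachis it rose by 1.74 (SE 0.529, limma adjusted p = 0.00909), and this call ended without replicate 1 (adjusted p = 0.0991) or 2 (adjusted p = 0.133). TraesCS2A03G0388300.1 rose by 0.67 in the floret (SE 0.224, limma adjusted p = 0.0137), and in the rachis by 1.33 (SE 0.265, limma adjusted p = 0.000119). Without 29 °C and 24 h its differences were 0.03 (adjusted p = 0.957) and 0.62 (adjusted p = 0.177).

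Heat responses of the members were not called different between the tissues. In the test of that difference limma called 0 of 79 members, with 4 at an unadjusted p under 0.05, and 12 of 40613 entries, with 1788 at an unadjusted p under 0.05. This fit did not pair the tissues of a head, and no fit with the plant as block was run for it. The lack of calls therefore does not show equal responses.

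Tissue was compared as floret minus rachis, in a fit that did not pair the 2 tissues of a head. As a mean over all 16 combinations of seed treatment, pot set and time, limma called 53 of 79 members, 23 higher in the floret and 30 higher in the rachis, where 71.4% of all entries were called. Of the 29 higher members 18 were higher in the floret and 2 in the rachis. Of the 50 lower members 5 were higher in the floret and 28 in the rachis. Among all entries tested 36.5% were called higher in the floret and 34.8% in the rachis. The median floret minus rachis difference was 0.20 for the higher and -0.10 for the lower members, against 0.01 for all entries. Whether the 2 sets differ from each other was not tested. Under the 12 alternatives the higher members had 14 to 19 calls for floret and 1 to 2 for rachis, and the lower members 5 to 6 and 22 to 31. Of all entries 30.2% to 41.9% were then called higher in the floret and 27.4% to 36.2% in the rachis.

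Each seed treatment was also taken alone. In DMSO heads alone the mean was higher in the floret for 20 of 29 higher members and 11 of 50 lower members, and in EBR heads alone for 22 of 29 and 13 of 50. Of the 30127 entries 52.0% were higher in the floret in DMSO heads and 52.1% in EBR heads. Rachis libraries held fewer reads than floret libraries, with medians of 14.7 M and 17.4 M, and the part of depth in the split was not tested.

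**Figure D5:**
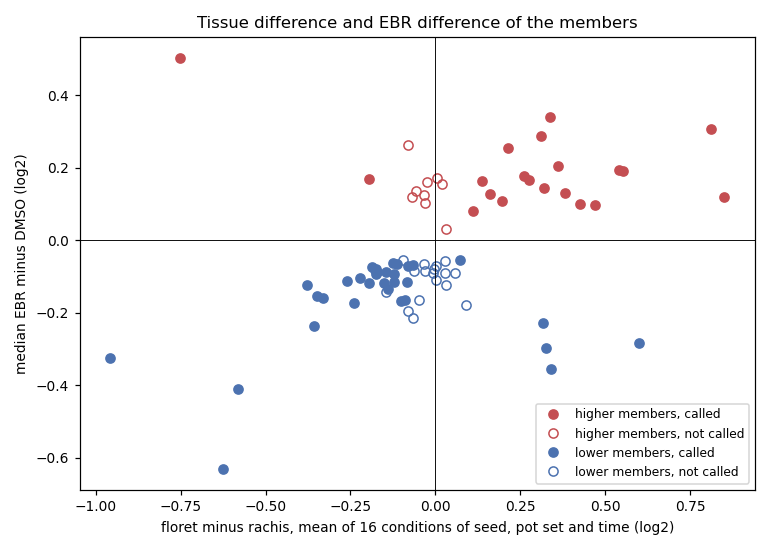
Floret minus rachis difference (x axis, mean of 16 combinations of seed, pot set and time) against the median EBR minus DMSO difference (y axis) for the 29 higher members (red) and 50 lower members (blue), both in log2 units, filled where limma called the tissue difference. Of the higher members 18 are called to the right of 0 and 2 to the left, and of the lower members 5 and 28.

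TraesCS2D03G1244800.1 and TraesCS1B03G0833300.1, higher members on chromosomes 2D and 1B, were named for the floret. The former had 13.6, 76.6 and 129 normalized counts at the lowest, median and highest of 61 floret libraries and 12.1, 41.4 and 77.9 of 60 rachis libraries. The latter had 44.0, 154 and 239 in florets and 30.3, 82.4 and 171 in the rachis. Floret means were higher in 16 of 16 combinations for both, without overlap in 7 for the former and 10 for the latter. The log2 differences were 0.85 (SE 0.0912, limma adjusted p = 5.6e-14) and 0.81 (SE 0.0742, limma adjusted p = 4.4e-17).

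TraesCS3B03G1494000.1 and TraesCS4A03G0522400.1, lower members on chromosomes 3B and 4A, were named for the rachis. The former had 58.5, 94.6 and 224 in florets and 70.2, 123 and 244 in the rachis, with higher rachis means in 16 of 16 combinations and no overlap in 2. The latter had 115, 160.1 and 249 in florets and 129, 174 and 531 in the rachis, with higher rachis means in 14 of 16 and no overlap in 2. Single libraries of the tissues overlapped widely in both genes. The log2 differences were -0.35 (SE 0.0631, limma adjusted p = 8.6e-07) and -0.26 (SE 0.0370, limma adjusted p = 1.4e-09).

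Time of sampling at 22 °C was tested in pots that were never heated, as a mean of both seed treatments, with an F-test of the 3 later times against 0 h. In the floret limma called 20 of 79 members, where 31.9% of all entries were called, and in the rachis 10 of 79, where 36.4% were. Calls in both tissues numbered 7, but the share of all entries called in both was not computed, so nothing is read from this count. In the floret 13 of 29 higher members and 7 of 50 lower members were called, and in the rachis 4 and 6. Of the 20 called in the floret 9 had their highest mean at 16 h and 6 at 0 h, while 10 had their lowest at 24 h and 8 at 8 h. Of the 10 called in the rachis 3, 3, 1 and 3 had their highest mean at 0, 8, 16 and 24 h. There 4 had their lowest at 8 h and 4 at 24 h. Shares of all called entries by time were not computed, so nothing is read from these counts. With the head axis score of the other tissue as a covariate 3 members were called in the floret and 2 in the rachis, where 1.82% and 1.27% of all entries were. Leaving out replicate 2, 3 or 4 gave 18, 1 or 5 calls in the rachis, where 33.7%, 1.1% or 17% of all entries were called. Leaving out replicate 1, 2 or 3 gave 9, 13 or 10 in the floret, where 13.7%, 26.5% or 16% were. TMM factors moved the median over all entries of the time difference of largest size. It went from 0.08 to -0.06 in florets and from -0.06 to -0.13 in the rachis. With these factors 23 and 11 members were called, where 31.6% and 36.8% of all entries were.

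TraesCS5D03G0411000.1 fell between 0 and 8 h and was higher again at 16 h. Its floret values were 110 to 238 (median 185) normalized counts in 8 libraries at 0 h, 19.3 to 45.1 (median 22.5) in 7 at 8 h, 82.3 to 138 (median 100.3) in 8 at 16 h and 91.5 to 190 (median 146) in 8 at 24 h. In the rachis they were 80.1 to 171, 8.55 to 31.4, 48.7 to 153 and 59.6 to 120.1. The 8 h libraries did not overlap those of any other time in either tissue. The difference of 8 h from 0 h was -2.74 in the floret (limma F-test, adjusted p = 5.6e-19) and -2.85 in the rachis (limma F-test, adjusted p = 1.2e-12).

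TraesCS5B03G0436300.1, on chromosome 5B, moved less and in the same direction. Its floret values had medians of 725 normalized counts at 0 h, 592 at 8 h, 625 at 16 h and 688 at 24 h, and its rachis values 783, 648, 739 and 757. Its difference of 8 h from 0 h was -0.24 in the floret (limma F-test, adjusted p = 0.00434) and -0.33 in the rachis (limma F-test, adjusted p = 0.00143). Leaving out replicate 1 or adding the head axis covariate ended the call in the floret (limma adjusted p from 0.00293 to 0.0680 over 13 alternatives). Leaving out replicate 3 ended it in the rachis (0.00100 to 0.0661).

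Over the 5 tests of heat, tissue and time 68 of 79 members (86.1%) were called at least once and 11 in none, where 89.7% of the 37058 entries tested in all 5 were called at least once.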

How the data were processed

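Per the submitters' processing notes, FastQC, MultiQC, Trimmomatic 0.36, STAR, featureCounts and DESeq2 were used, without roles. Genome build and aligner settings were not given in the sources used here. Signal, as normalized counts, was deposited by the authors as 1 table of gene entries by libraries: in every library 100% of values were whole reads, within 0.01, after division by a single factor was undone. It had 55578 entries, 1 of them incomplete. Of 122 samples 121 have a column; the rachis sample of EBR seed, 22 °C, 8 h, replicate 1 was not analysed here.

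Tests used limma 3.58.1 in R 4.3.3 on log2(normalized count + 1), with 1 mean per group, an intensity trend, and entries of at least 10 in at least 3 libraries. Differences are on this scale, which understates changes of scarce transcripts. The scripts were tested on simulated data. Nothing says replicates came from separate pots, so p-values measure the spread between plants as labelled.

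Members, lists and tests were chosen with earlier results of these data known. Up to 2 members per direction and comparison were named, by the largest change. For time, 2 were named by the smallest product of the F-test p-values of both tissues, without regard to direction. Except for the seed treatments, members named needed calls in every tissue tested and a mean of at least 50. Alternatives were other pseudocounts (0.5 and 5), filters, TMM factors, edgeR 4.0.16 on the whole reads, the compared groups alone, each replicate number left out, a replicate block, a head axis covariate and, chosen after seeing the data, no libraries of 29 °C and 24 h. Residuals of same-numbered libraries had a mean r of 0.004 (floret) and 0.014 (rachis), against -0.001 and -0.004 for other numbers. No pairing by number was therefore used in the main fits. Such an average cannot show whether numbers pair samples in some groups. Floret and rachis of a plant come from 1 head (mean r 0.307 in 59 plants, above 0.1 in 50). The plant was the block in an alternative of the tissue comparison only. Its main fit had no block, so the SEs and p-values given for tissue do not use this pairing.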

Additional observations from a re-analysis of the deposited data

Results flagged for a closer look

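In 338 groups of 4 libraries of the 13 named members, 16 held a library whose gap to the nearest of the other 3, as a share of the group's range, exceeded Dixon's critical value. Chance flags about 1 in 20 groups. Values are normalized counts, and no cause was tested.

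TraesCS2B03G0961800.1 had 103 in an EBR floret at 22 °C and 16 h, with the others from 55.1 to 60.0, and 56.3 in a DMSO rachis at 29 °C and 8 h, with the others from 40.1 to 42.5. TraesCS2D03G0301500.1 had 144 in a DMSO rachis at 22 °C and 24 h, where the others had 265 to 293. TraesCS5D03G0411000.1 had 91.5 in a DMSO floret at 22 °C and 24 h, where the others had 171 to 190. TraesCS4D03G0742700.1 had 242 in a DMSO floret at 22 °C and 16 h (others 194 to 199), 213 in an EBR rachis at 22 °C and 0 h (others 152 to 160) and 109 in a DMSO rachis at 29 °C and 8 h (others 152 to 155). TraesCS1B03G0967200.1 had 494 in an EBR floret at 22 °C and 0 h, with the others at 432 to 436.

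TraesCS2D03G1244800.1 had 13.6 in an EBR floret at 22 °C and 16 h, where the others had 59.9 to 72.6. TraesCS1B03G0833300.1 had 227 in an EBR floret at 22 °C and 0 h (others 150 to 159) and 134 in an EBR floret of the 29 °C pots at 0 h (others 160 to 166). TraesCS3B03G1494000.1 had 85.9 in an EBR floret of the 29 °C pots at 0 h (others 127 to 135) and 99.7 in an EBR floret at 29 °C and 8 h (others 73.0 to 74.8). TraesCS4A03G0522400.1 had 174 in a DMSO floret at 22 °C and 0 h, with the others at 163 to 165. TraesCS5B03G0436300.1 had 729 in an EBR rachis of the 29 °C pots at 0 h (others 828 to 839) and 823 in a DMSO rachis of these pots at 0 h (others 702 to 722).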

How the results depend on the processing

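Sets chosen by the rule changed most. Requiring 16 of 16 conditions left 0 higher and 1 lower entry, and TMM factors gave 46 higher ones. The head axis covariate gave 76 higher entries, and leaving out 29 °C and 24 h 97. With 1 replicate number left out, the higher entries numbered 25 to 49 and the lower ones 24 to 105. Of the tested counts, heat in the rachis fell from 22 to 11 without 29 °C and 24 h and ranged from 13 to 29 without single replicate numbers. Of all entries 23.2% and 20.3% to 36.4% were then called, against 34.8% in the main fit. Time in the floret fell from 20 to 3 with the head axis covariate and had 9 to 16 without single replicate numbers. Of all entries 1.82% and 13.7% to 26.5% were then called, against 31.9% in the main fit. Time in the rachis fell from 10 to 6 with only the compared groups and to 2 with the covariate, and had 1 to 18 without single replicate numbers. Of all entries 23.6%, 1.27% and 1.1% to 33.7% were then called, against 36.4% in the main fit. The causes were not tested. Heat in the floret (25 to 31 without single replicate numbers) and the tissue comparison (48 to 51) stayed within 1.5 times of 31 and 53 under the alternatives run. Without single replicate numbers 31.5% to 38.1% and 64.3% to 69.6% of all entries were called, against 42.2% and 71.4% in the main fits. With a replicate block the counts were 30 and 22 for heat in floret and rachis and 20 and 10 for time. Of all entries 42%, 34.9%, 31.8% and 36.9% were then called. With the plant as block 57 members were called for the tissue comparison, where 74% of all entries were. Neither block changed a call of a named member. The balance of higher and lower entries did reverse, from 29 and 50 to 46 and 36 with TMM factors and to 97 and 53 without 29 °C and 24 h. Of 212 values of named members under an alternative 195 kept their side of the threshold, 17 lost it, and 0 of those with a direction changed sign. The edgeR quasi-likelihood test on the recovered whole reads called 31 and 23 members for heat, 54 for the tissue comparison and 20 and 9 for time, of 15488, 13182, 27706, 12050 and 14101 entries called. These were 39.5%, 34.1%, 67.7%, 30.8% and 36.5% of all entries tested. The compared groups alone and the covariate were not run for the tissue comparison. Members with means near 20 rest on few reads, and groups of 2 or 3 libraries, as in the rachis of EBR heads at 22 °C and 8 h, limit their differences.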
